A study of Mus musculus with 6 samples.

Results

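The 6 genes described here are the metalloproteinases Mmp1a, Mmp2, Mmp9 and Mmp13 and the tissue inhibitors of metalloproteinases Timp1 and Timp2. They were chosen by name from the 84 genes of interest on a custom qRT-PCR plate for cytokines and fibrosis. RNA came from the back skin of female Balb/c mice taken 70 days after irradiation. Per the methods of the study, mice of this model were 10 weeks old and received 5.8 Gy. All 6 animals had been grafted with 5000000 bone marrow cells depleted of T and B cells and 1000000 splenocytes from C57BL/6 donors, which induces graft-versus-host disease (GVHD). The 3 GVHD controls, numbered 1 to 3, received no CpG-proBs (PBS in the transfer experiments of the study), and the 3 CpG-proB recipients, numbered 4 to 6, also received 750000 CpG-proBs, B-cell progenitors activated with the TLR-9 agonist CpG. Neither untreated nor syngeneic grafted skin was among the samples, so every value compares 2 groups of diseased animals. The comparison asks how the transfer of CpG-proBs altered the expression of matrix-degrading enzymes and their inhibitors in sclerodermatous skin.

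Matrix metalloproteinases are zinc-dependent enzymes that are mostly secreted as inactive precursors and degrade the extracellular matrix once activated. MMP-1a and MMP-13 belong to the collagenases, which cut intact fibrillar collagen, and MMP-13 is the main interstitial collagenase of the mouse. MMP-2 and MMP-9 are the gelatinases, which degrade denatured collagen and the type IV collagen of basement membranes. TIMP-1 and TIMP-2 bind the active site of these enzymes. TIMP-1 also binds the precursor of MMP-9 and TIMP-2 that of MMP-2. In fibrotic skin the balance of proteases and inhibitors is one of the determinants of collagen turnover.

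AP-1 sites, bound by Fos and Jun proteins, and nearby Ets sites are well-known elements of collagenase promoters. RefSeq promoter windows were found for Mmp1a, Mmp13, Timp1 and Timp2, which is 4 of the 6 genes. The last 120 bases before each annotated start are shown so that the collagenase and inhibitor genes can be set side by side, and no link between these letters and the measured levels was tested. They are written 5′ to 3′ on the strand of the gene, in build GRCm38.p6. Capitals mark the matches found on either strand. The motif searched for AP-1 was TGANTCA. For Ets factors it was AGGAAG. For the TATA box it was TATAAA.
Mmp1a, chr9:7464021-7464140, plus strand: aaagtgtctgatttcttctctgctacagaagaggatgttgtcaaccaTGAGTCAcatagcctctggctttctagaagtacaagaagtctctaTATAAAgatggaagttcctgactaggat
Mmp13, chr9:7272394-7272513, plus strand: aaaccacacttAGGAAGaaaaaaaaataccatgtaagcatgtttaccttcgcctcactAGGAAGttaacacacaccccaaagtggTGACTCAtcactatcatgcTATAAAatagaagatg
Timp1, chrX:20870046-20870165, plus strand: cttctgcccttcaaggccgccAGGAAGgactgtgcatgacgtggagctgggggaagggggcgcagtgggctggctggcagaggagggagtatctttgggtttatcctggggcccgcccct
Timp2, chr11:118355412-118355531, minus strand: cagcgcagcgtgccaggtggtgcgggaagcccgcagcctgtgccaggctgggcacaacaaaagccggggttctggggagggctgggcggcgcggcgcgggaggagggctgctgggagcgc

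Over the 250 bases before the start, both collagenase genes held 1 match to TGANTCA, starting 73 bases before the start of Mmp1a and 35 bases before that of Mmp13. Among all 32851 windows of this length, 6.75% held such a match. AGGAAG occurred 2 times in the windows of Mmp13 and Timp1 and in 29.5% of all windows, and TATAAA occurred 1 time in each collagenase gene and in 12.4% of all windows. The window of Timp2 held none of these letters. A match describes the sequence and was not tested as a binding site.

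The value of a well is its threshold cycle (Ct), reached earlier the more template it holds, with a doubling of product per cycle where amplification is fully efficient. On this plate the genes of interest ranged from 21.04 to 36.39 cycles. The negative-control wells gave Ct values from 28.21 to 30.13, and their composition is not given in the sources used here. Because assays differ in efficiency and amplicon length, the Ct of different genes are not compared as abundances. Of the 36 wells of the 6 genes, 34 had a Ct, and both missing wells belonged to Mmp1a.

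The position of each gene relative to the negative-control wells of the same animal limits what its values can show. Mmp2 and Timp2 lay below them, that is, were detected earlier, in all 6 animals. Mmp9 reached the lowest negative-control Ct of its own animal in 2 controls and in no recipient, and Timp1 did so in no control and in all 3 recipients. Mmp13 was past it in 6 of 6 animals, and Mmp1a in all 4 animals in which it was measured. For Mmp9 (controls) and Timp1 (recipients) it was thus the lower group that held values at or past this Ct. Every Mmp13 value lay past it, in both groups.

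**Figure D1:**
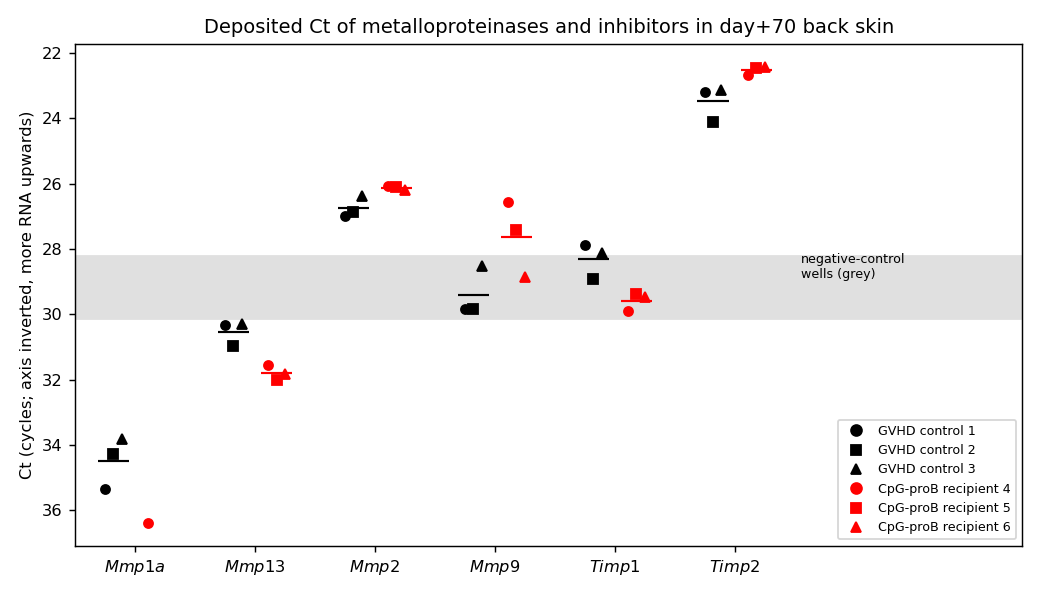
Deposited Ct (cycles, axis inverted) of the 6 genes for the 3 animals of each group (controls black, recipients red), with group means as bars and the range of all negative-control wells, 28.21 to 30.13, in grey. The recipients lie above the controls for Mmp2 and Timp2 and below them for Mmp13 and Timp1, while Mmp9 overlaps by the Ct of recipient 6.

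In the deposited Ct, before any normalization, 4 of the 5 genes measured in every animal separated the groups without overlap. This was so for 25.6% of the 82 genes tested on the plate. The mean Ct of 6 house-keeping genes (Ppia, Tbp, B2m, Rplp0, Tfrc and Gusb) was 21.34, 22.94 and 22.20 in controls 1, 2 and 3 and 21.66, 22.71 and 22.98 in recipients 4, 5 and 6. Control 1 and recipient 4 therefore had the lowest house-keeping Ct of their groups. Levels are given below as −ΔCt, this mean minus the Ct of the gene, a log2 scale on which higher means more RNA. On that scale control 1 was the lowest control for all 6 genes and recipient 4 the lowest recipient for 4 of the 5 genes tested, and 1 gene, Mmp9, still separated the groups, where 20.7% of all genes did so and 15.9% with all recipients above. In bulk skin, fewer cells that express a gene and less RNA per cell cannot be told apart.

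The groups were compared with limma over the 82 genes. The threshold of the study, a change of 1.4-fold or more with p at most 0.05, was applied to the unadjusted p-values of limma, a test that the study does not name for these data. Of the 5 genes tested, 2 passed, Mmp9 and Timp2, both higher in recipients, where 17.1% of all genes tested passed 12.2% as higher and 4.88% as lower. The median log2 fold change was 0.93 over the 5 genes and 0.11 over all genes. Adjusted p from limma was above 0.05 for each of the 5 genes and at most 0.05 for 2.44% of all genes. A two-sided exact permutation test of 3 animals against 3 cannot go below 0.1.

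Mmp9, which encodes gelatinase B, an enzyme of neutrophils, macrophages and keratinocytes, lies on chromosome 2 and was amplified from exons 1 and 2 as a product of 86 bp. Its −ΔCt was −8.49, −6.90 and −6.32 in controls 1, 2 and 3 and −4.91, −4.71 and −5.89 in recipients 4, 5 and 6. All recipients were above all controls, with a gap of 0.43 on this scale. The log2 fold change was 2.07 (standard error 0.60, 95% interval 0.80 to 3.34, adjusted p = 0.061 from limma), or 4.20-fold. Mmp9 passed the threshold under all 19 alternatives in which it was tested. Its values ranged from 1.44 without control 1 to 2.82 with Ppia, Tbp and Actb as the reference. These 3 house-keeping genes had the smallest pooled SD within groups (0.19 to 0.26) and are called the steadiest trio for that reason alone. A gene whose level differs from controls to recipients can still have a small SD of this kind. With all 8 house-keeping genes the log2 fold change of Mmp9 was 2.36. Over the 19 alternatives its adjusted p from limma ranged from 0.0131 with that trio to 0.388 without normalization, and it was at most 0.05 in 5 of them.

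Mmp2 encodes gelatinase A, which is made by fibroblasts. It lies on chromosome 8, and the product of 72 bp spans exons 2 and 3. The −ΔCt was −5.66, −3.94 and −4.19 in controls and −4.40, −3.39 and −3.22 in recipients, listed in the order of the animals. Recipient 4 lay within the range of the controls, so the groups overlapped. The log2 fold change was 0.93 (standard error 0.57, 95% interval −0.28 to 2.14, adjusted p = 0.404 from limma) and did not pass the threshold. It passed with the steadiest trio (1.68) and without recipient 4 (1.29), and was 0.40 without control 1.

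Mmp13, the main mouse collagenase, lies on chromosome 9 and was amplified over exons 3 and 4 as a product of 78 bp. It had −ΔCt values of −8.98, −8.02 and −8.11 in controls and −9.90, −9.31 and −8.86 in recipients. Control 1 lay among the recipients, whereas in the deposited Ct every recipient (31.56 to 32.02) was later than every control (30.31 to 30.96). The log2 fold change of −0.98 (standard error 0.52, 95% interval −2.08 to 0.11, adjusted p = 0.396 from limma) did not pass the threshold. It passed with the median Ct of the plate's genes as the reference (−1.35), with Ppia left out of the reference (−1.16), without control 1 (−1.29) and without recipient 6 (−1.23). With the steadiest trio as the reference it was −0.23.

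Mmp1a, a mouse relative of the human interstitial collagenase MMP-1 that also lies on chromosome 9, was measured with a product of 136 bp over exons 7 and 8 and was at the limit of the assay. Its Ct was 35.36, 34.28 and 33.81 in controls 1, 2 and 3 and 36.39 in recipient 4, and recipients 5 and 6 had no Ct. The level of recipient 4, a −ΔCt of −14.73, was below the 3 controls, which were at −14.02, −11.34 and −11.61. Signal was thus recorded in 3 of 3 controls and 1 of 3 recipients, always later than the negative-control wells. With a single value in recipients the gene could not be tested as measured.

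Timp2 is constitutively expressed by fibroblasts. It lies on chromosome 11 and was measured over exons 3 and 4 with a product of 128 bp. Its −ΔCt was −1.85, −1.17 and −0.94 in controls and −1.01, 0.25 and 0.56 in recipients. Recipients 5 and 6 were above all controls, and recipient 4 lay between controls 2 and 3. The log2 fold change of 1.26 (standard error 0.55, 95% interval 0.10 to 2.41, adjusted p = 0.260 from limma), or 2.39-fold, passed the threshold of the study. It passed with all 8 house-keeping genes (1.55) and with the steadiest trio (2.01), but not with the median Ct of the plate's genes (0.89), without normalization (0.96), or without control 1 (0.99), recipient 5 (1.10) or recipient 6 (0.94). Nor did it pass with Ppia (1.08) or Tfrc (1.13) left out of the reference, or when each gene kept its own variance.

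Timp1, the inducible inhibitor, lies on chromosome X and was measured over exons 2 and 3 with a product of 146 bp. Its −ΔCt was −6.54, −5.98 and −5.91 in controls and −8.25, −6.67 and −6.48 in recipients. Recipient 6 was just above control 1, and recipient 4 was the lowest of all animals. The log2 fold change of −0.99 (standard error 0.56, 95% interval −2.17 to 0.19, adjusted p = 0.404 from limma) did not pass the threshold. It passed with the median Ct of the plate's genes (−1.36) and with Ppia left out of the reference (−1.16), and was −0.43 without recipient 4.

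**Figure D2:**
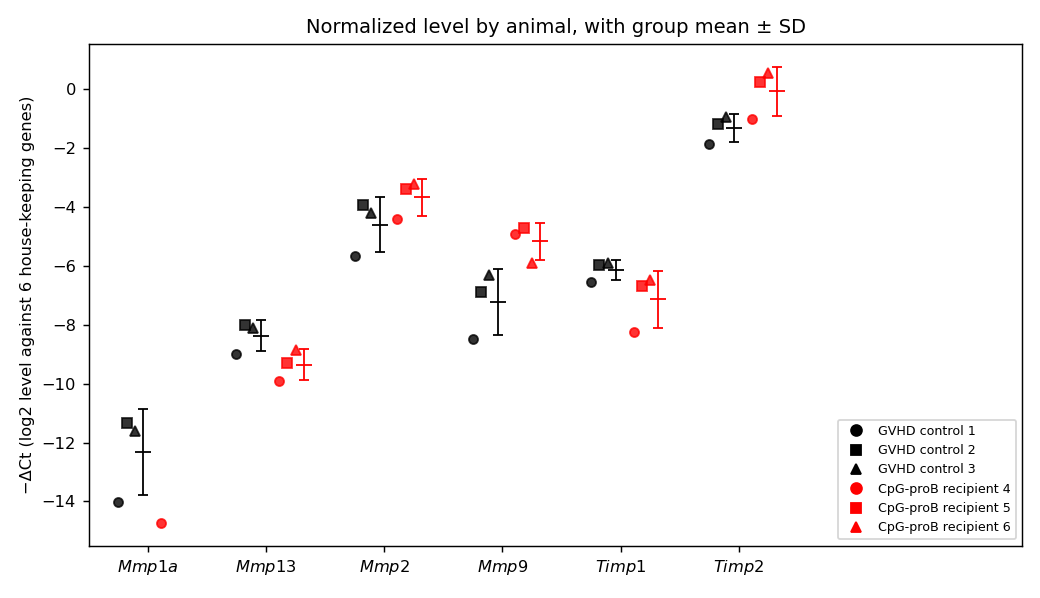
−ΔCt of each gene (log2 level against the mean Ct of 6 house-keeping genes) in each animal (controls black, recipients red), with the mean ± SD of each group of 3 beside the animals. Mmp9 is the gene without overlap among the 5 measured in every animal, and Mmp1a has 1 recipient value, at −14.73.

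The reference shifted all genes alike. Against the reference of 6 house-keeping genes the median of all genes was 0.11. It was 0.41 with all 8 of them, where 14.6% of all genes passed the threshold, and 0.86 with the steadiest trio, where 30.5% passed. It was −0.26 with the median Ct, where 26.8% passed, and −0.18 without normalization, where 7.32% passed. Under these 5 references Mmp9, Timp2 and Mmp2 kept a positive and Mmp13 and Timp1 a negative sign. The highest of the 5 medians was that of the steadiest trio, which was picked by spread within groups alone.

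**Figure D3:**
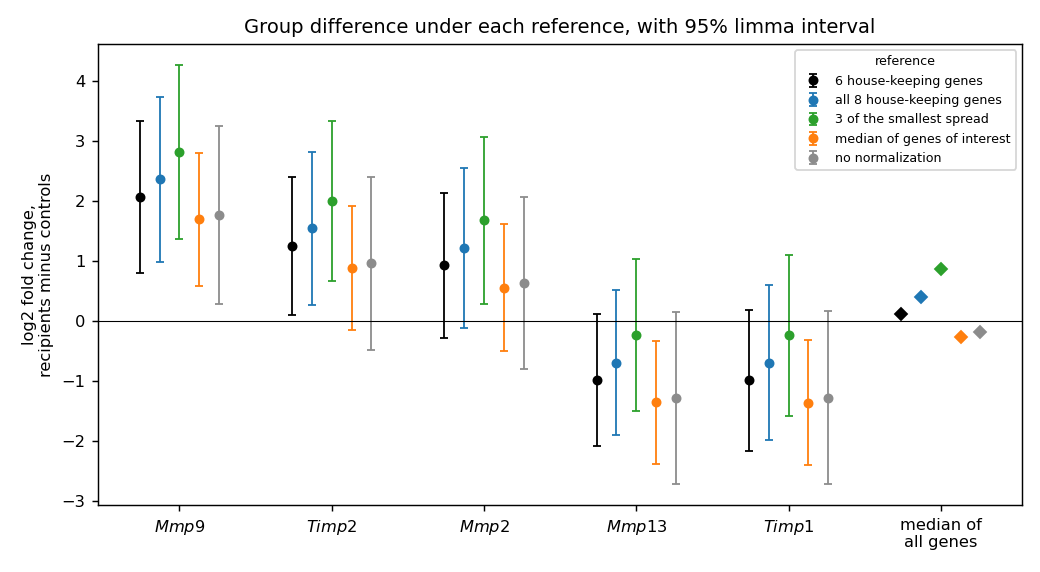
Log2 fold change of recipients minus controls for the 5 genes tested under 5 references, with 95% limma intervals, and the median of all genes as diamonds. The point values of Mmp9 range from 1.70 to 2.82 and those of Timp1 from −1.36 to −0.24. The intervals of Mmp9 all exclude 0, while those of Timp1 include 0 except with the median Ct as the reference.

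Differences between genes within an animal need no house-keeping gene, because the amount of template cancels. For each pair the log2 ratio is the Ct of the denominator minus the Ct of the numerator. Its level depends on both assays, and its difference between the groups is what is compared. In all, 9 pairs of genes were compared, 6 of them a protease over an inhibitor. Each was taken from a limma fit of all 81 other genes against the same denominator, with p-values adjusted over those 81.

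The ratio of the inhibitors had little spread within either group. Timp2 over Timp1 was 4.69, 4.81 and 4.97 in controls 1, 2 and 3 and 7.24, 6.92 and 7.04 in recipients 4, 5 and 6. The group means were 4.82 ± 0.14 (SD, n = 3) and 7.07 ± 0.16 (SD, n = 3), so that neither group spanned more than 0.32 on the log2 scale while 1.95 lay between them. The difference was 2.24 (standard error 0.59, 95% interval 1.02 to 3.46, adjusted p = 0.00941 from limma), a 4.73-fold shift of the measured ratio towards Timp2 in recipients (exact permutation test, p = 0.1). Timp1 was at or past the negative-control wells of the same animal in all 3 recipients, so that this fold rests on a denominator in the range of those wells. Leaving out any 1 animal gave values from 2.16 to 2.32. Relative to Timp1, 37% of all genes passed the threshold, each of them as higher in recipients, adjusted p was at most 0.05 for 21% and the median difference of all genes was 1.10.

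The ratios of both gelatinases to Timp1 were higher in recipients. Of the 81 genes fitted, 75 differed in this direction, with a median of 1.10, and 37% passed the threshold. Mmp9 over Timp1 was −1.95, −0.92 and −0.41 in controls and 3.34, 1.96 and 0.59 in recipients. The groups did not overlap, and the recipients were spread over 2.75 on the log2 scale. The difference of 3.06 (standard error 0.70, 95% interval 1.60 to 4.51, adjusted p = 0.00499 from limma) was 8.32-fold, and leaving out any 1 animal gave values from 2.37 to 3.74. Mmp2 over Timp1 was 0.88, 2.04 and 1.72 in controls and 3.85, 3.28 and 3.26 in recipients, again without overlap. Its difference was 1.92 (standard error 0.61, 95% interval 0.65 to 3.18, adjusted p = 0.0269 from limma), or 3.78-fold. Both passed the threshold of the study under all 9 alternatives run on them. Adjusted p from limma rose to 0.111 for Mmp9 and 0.0759 for Mmp2 when each gene kept its own variance, and for Mmp2 also to 0.126 without control 1, 0.0686 without control 3 and 0.0628 without recipient 5. The Ct of Mmp9 in controls 1 and 2 and that of Timp1 in all 3 recipients reached the lowest negative-control Ct of the same animal. The part of the negative-control signal in the folds relative to Timp1 was not tested. For both ratios the recipients lay entirely above the controls, with p = 0.1 in the exact permutation test. Groups without overlap were found for 34.6% of all genes relative to Timp1.

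Mmp13 and Timp1 kept nearly the same ratio. Mmp13 over Timp1 was −2.44, −2.04 and −2.20 in controls and −1.65, −2.64 and −2.38 in recipients, with the controls inside the range of the recipients. The difference was 0.0033 (95% interval −1.24 to 1.25, exact permutation test, p = 1), and the interval holds changes in either direction. Its sign was not stable, with −0.28 without recipient 4 and 0.21 without recipient 5. Since both assays gave recipient Ct values at or past the negative-control wells, the part of that signal in their ratio was not tested.

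Relative to Timp2 each difference was lower by 2.24, the difference in Timp2 over Timp1. Mmp13 over Timp2 fell from −7.13, −6.85 and −7.17 in controls to −8.89, −9.56 and −9.42 in recipients, without overlap. The difference of −2.24 (standard error 0.49, 95% interval −3.31 to −1.17, adjusted p = 0.00873 from limma) is a ratio in recipients of 0.212 times that in controls, and it passed the threshold of the study under all 9 alternatives, with an adjusted p of 0.0574 without recipient 5. All Ct of Mmp13 were past the negative-control wells, and the part of that signal was not tested. Relative to Timp2, 40.7% of all genes passed the threshold, 39.5% as lower, adjusted p was at most 0.05 for 24.7%, groups did not overlap for 37% and the median difference was −1.15. Mmp2 over Timp2 was −3.81, −2.77 and −3.25 in controls and −3.39, −3.64 and −3.78 in recipients. That difference of −0.33 (95% interval −1.43 to 0.78, adjusted p = 0.584 from limma) did not pass the threshold. Mmp9 over Timp2 was −6.64, −5.73 and −5.38 in controls and −3.90, −4.96 and −6.45 in recipients. Recipient 6 was within the range of the controls, and the difference of 0.81 (95% interval −0.63 to 2.25, adjusted p = 0.324 from limma) did not pass. It passed without recipient 6, at 1.49, and was 0.21 without recipient 4 and 0.45 without control 1.

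**Figure D4:**
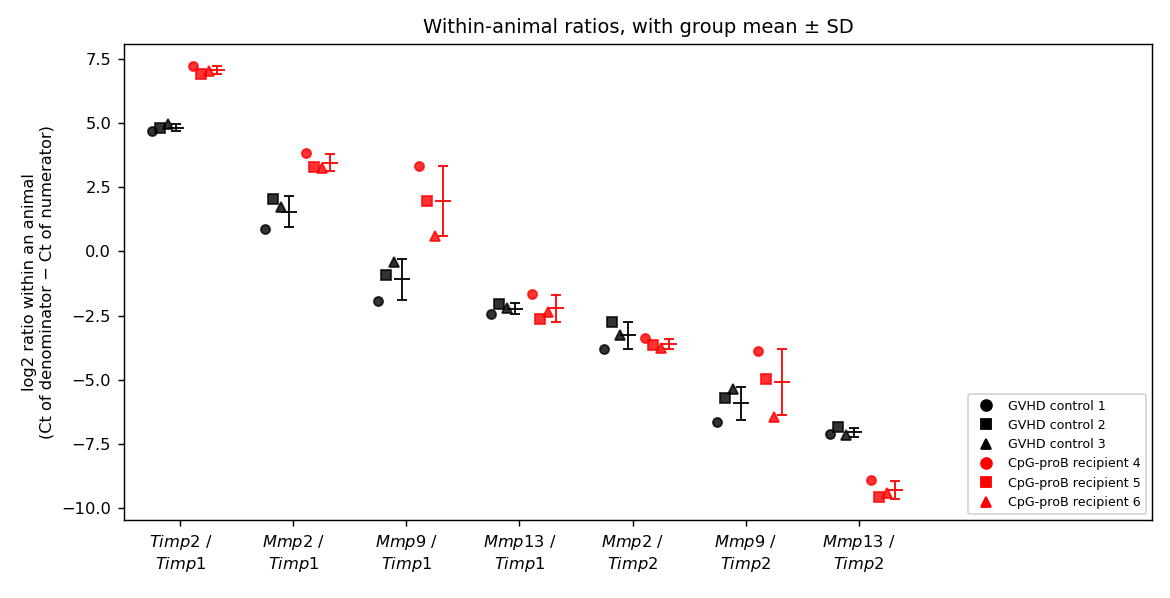
Log2 ratio of 2 transcripts within each animal (Ct of the denominator minus Ct of the numerator) for Timp2 over Timp1 and the 6 protease and inhibitor pairs, controls in black and recipients in red, with the mean ± SD of each group of 3. Timp2 over Timp1 shifts from 4.82 to 7.07 with little spread, Mmp9 over Timp1 from −1.09 to 1.96 with more, and Mmp13 over Timp1 does not separate the groups.

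Between proteases, Mmp13 over Mmp2 was −3.32, −4.08 and −3.92 in controls and −5.50, −5.92 and −5.64 in recipients. The groups did not overlap, and the difference of −1.91 (standard error 0.75, adjusted p = 0.085 from limma) passed the threshold, but not without recipient 5 (−1.80). Relative to Mmp2, 27.2% of all genes passed, 24.7% as lower, the groups of 27.2% did not overlap, and adjusted p was at most 0.05 for 1.23%. The median difference of all genes was −0.82, and every Ct of Mmp13 was past the negative-control wells of its animal. Mmp9 over Mmp2 was −2.83, −2.96 and −2.13 in controls and −0.51, −1.32 and −2.67 in recipients, where recipient 6 again fell among the controls. This difference of 1.14 (95% interval −0.34 to 2.62, adjusted p = 0.350 from limma) did not pass, and it was 0.65 without recipient 4 and 1.73 without recipient 6. For Mmp1a the available ratio to Timp1 was −7.48, −5.36 and −5.70 in controls and −6.48 in recipient 4, within the range of the controls. Its ratio to Timp2 was −12.17, −10.17 and −10.67 in controls and −13.72 in recipient 4, below them.

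Across the 6 animals, each of the 5 genes was compared with the other 4 and with 16 genes of the matrix and its regulation, by Pearson's r of −ΔCt. All values share the house-keeping reference and the difference between the groups, and r is given as a description over 6 animals. Timp2 was most like Lox, which encodes the collagen cross-linking enzyme lysyl oxidase (r = 0.976), and Mmp2 was most like Timp2 (r = 0.904). Mmp9 was most like Thbs2, which encodes thrombospondin-2 (r = 0.919). Mmp13 was most like Pdgfa, a fibroblast mitogen (r = 0.950), and Timp1 most like Serpinh1, the gene of the collagen chaperone HSP47 (r = 0.938). The r of Mmp13 with Timp1 was 0.914, and that of Timp1 with Timp2 was 0.018. Mmp2, Mmp9 and Timp2 were all least like Col3a1, which encodes the chain of type III collagen (r from −0.861 to −0.716). Mmp13 and Timp1 were least like Ctgf, which encodes connective tissue growth factor (r = −0.694 and −0.705).

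The 16 genes themselves fall into 4 lists. Over all of them 4 passed as higher and 1 as lower, beside the 12.2% and 4.88% of all genes, and the groups did not overlap for 10, beside 20.7% of all genes. Of 4 collagen genes and genes of collagen processing, 1 passed the threshold, Col3a1, which was lower in recipients by a log2 value of −1.45 (adjusted p = 0.180 from limma), and Col1a2, Lox and Serpinh1 did not pass, at 0.16, 1.02 and −1.02. In the plasminogen cascade, which generates the plasmin that activates metalloproteinase precursors, the log2 values of Plat, the tissue activator, and Plg, plasminogen itself, were −0.76 and −0.98, and neither passed. Of 5 growth factors, Egf (2.45, adjusted p = 0.0153 from limma) and Pdgfb (1.70, adjusted p = 0.061) passed as higher in recipients. Tgfb2 (0.90), Tgfb1 (−0.73) and Pdgfa (−0.70) did not pass. Of 4 matricellular and receptor genes, Thbs2 (1.75, adjusted p = 0.061 from limma) and the TGF-β receptor gene Tgfbr2 (1.45, adjusted p = 0.183) passed as higher, and Ctgf (0.77) and Thbs1 (0.33) did not pass. The median was −0.43 over the collagen list, 0.90 over the growth factors and 1.11 over the matricellular and receptor genes, beside 0.11 over all genes.

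Markers of cells that make these proteins are given beside them. Among 3 macrophage markers, Csf1r, the receptor of the macrophage growth factor CSF-1, passed as higher (1.30, adjusted p = 0.183 from limma), and Adgre1 (−0.60) and Cd68 (−0.56) did not pass. Controls had a mean −ΔCt of these markers between −5.15 and −4.06, and recipients one between −4.90 and −4.26. Among 3 genes of fibroblasts and myofibroblasts, Col3a1 was lower as given above, while Col1a2 (0.16) and Acta2 (0.48) did not pass. Their mean lay between −1.38 and −1.23 in controls and between −2.07 and −1.08 in recipients. All of these markers had a Ct in every animal, and their part in the changes of the metalloproteinases and inhibitors was not tested. The plate held no keratin gene, so the epidermis could not be checked by a marker.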

How the data were processed

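RNA from the skin of 3 animals per group was reverse-transcribed with random primers and amplified on a 96-well SYBR Green plate. The values deposited by the authors are 1 Ct for each well of each animal, without normalization. The rule for calling a Ct and the number of technical repeats are not given in the sources used here. Wells were named from the plate map of the study. A second deposited table, which holds the authors' own comparison of the groups, was not used.

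The paper normalized to 6 house-keeping genes without naming them. Those used here had been matched to the authors' normalized values in earlier work on these data and were not rechecked, so results with all 8 are also given. Groups, taken from the labels, were fitted in R 4.3.3 with limma 3.58.1 (two-sided moderated tests by lmFit and eBayes, 12.7 prior degrees of freedom against the house-keeping genes, 18.7 against Timp1, 8.77 against Timp2 and an infinite number, hence 1 variance for all genes, against Mmp2) for genes with at least 2 Ct values per group. Adjustment followed Benjamini and Hochberg, over all genes tested. Intervals are 95% limma intervals. The fit was also run on simulated levels with independent noise for each gene. These held no error of a shared reference and no limit of detection, so they cannot speak to either. Python 3.11.15 and matplotlib 3.10.9 made the figures. The precision of a value rests on its Ct and on 3 animals per group, which the labels do not place in separate experiments. A limma p-value sets a difference against the spread between animals. That spread is pooled in part over all genes fitted, and wholly so against Mmp2. Amplification efficiency was not measured here.

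Alternatives replaced the reference, the variance model, the fold threshold (2), the filter and the treatment of wells without a Ct (set to 40), or left out 1 animal at a time. The 6 genes, the lists (16 genes of the matrix and its regulation and 2 sets of cell markers) and the tests were chosen with earlier results of these data known. All 6 genes and every listed gene that passed the threshold were named, together with the genes most and least like each member. Other metalloproteinases were kept in the fits over all genes and are not described here, and the result of 1 listed gene is not reported.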

Additional observations from a re-analysis of the deposited data

How the results depend on the processing

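The threshold of the study was passed by 2 of 5 genes. The number was 1 when each gene kept its own variance, without normalization, with Tfrc left out of the reference and when the fit kept only genes detected, on average, before every negative-control well, which removed Mmp9, Mmp13 and Timp1 from the fit. It was 3 with the steadiest trio of house-keeping genes, with the median Ct as the reference, with Ppia left out of the reference and with missing wells at a Ct of 40, which adds Mmp1a. It was from 1 to 3 with each animal left out, with 1 without recipient 5 and 3 without recipient 4. Relative to Timp1, 3 genes passed with each animal left out, relative to Timp2 from 2 to 3, and relative to Mmp2 from 1 to 2, with 1 without recipient 5. The difference in Mmp13 over Timp1 changed sign to −0.10 without control 1 and to −0.28 without recipient 4, was 0.21 at most, without recipient 5, and the cause was not tested. Timp2 kept its call in 12 of 20 alternatives and Timp2 over Timp1 in 9 of 9. With the missing wells of Mmp1a at a Ct of 40, its log2 fold change was −4.02 (adjusted p = 0.0429 from limma), which rests on 2 imputed wells among 3 recipients. No paired analysis was possible because the labels number the animals from 1 to 6 and the groups share no number. At 3 animals per group, standard errors of 0.52 to 0.60 on the log2 scale limit what could be detected.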
